A study of Rattus norvegicus with 13 samples.

Results

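Astrocyte genes were followed in the whole hypothalamus of 13 rats as a set of 10 transcripts chosen by name, Gfap, Aqp4, Mlc1, Slc1a2, Slc1a3, Gja1, Gjb6, Aldh1l1, S100b and Glul. Each had 1 row among the 17366 rows of the deposited table, and all 10 were among the 11837 genes tested. From postnatal day 25 on, 6 rats were fed a diet with 55% fructose and 7 rats standard chow with 0.30% fructose. The rats lived in pairs. After an overnight fast begun on postnatal day 79, each received glucose at 2 g per kg or saline into the abdomen, and tissue was taken 1 h later, on day 80. The sources used here do not say which of the 13 rats received glucose, nor give strain, sex or cage mates. The values are FPKM, fragments scaled by transcript length and by the mapped fragments of a library.

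Astrocytes clear glutamate and potassium from the space around synapses, cover blood vessels with endfeet and share ions and metabolites through gap junctions. Gfap encodes the intermediate filament protein whose rise is the classical sign of astrocyte reactivity. The other 9 members serve the resting functions of these cells and are called homeostatic here. Aqp4 and Mlc1 lie in endfoot membranes, Slc1a2 and Slc1a3 take up glutamate, Glul turns it into glutamine, Gja1 and Gjb6 form gap junctions, Aldh1l1 is an enzyme of folate metabolism and S100b binds calcium. Several are shared with other cells of this tissue, since tanycytes also use Gfap and Slc1a3, and oligodendrocytes also use S100b and Glul.

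Of the 10 astrocyte genes, 3 rose in fructose rats, 0 fell and 7 did not pass (limma on log2(FPKM + 0.5), Benjamini-Hochberg adjusted p under 0.05 over all 11837 genes). Over all genes 1.66% were called higher, 2.27% lower and 3.94% in either direction. Those that rose were the filament gene Gfap, at 1.53-fold, and the endfoot membrane genes Aqp4, at 1.21-fold, and Mlc1, at 1.12-fold. Folds are on the FPKM + 0.5 scale. Of the 10 log2 fold changes, 9 were above 0, with a median of 0.15, against a median of 0.00085 over all genes tested, of which 50.3% were above 0. Slc1a2 lay below 0 with array weights and without chow replicates 4 or 6 or fructose replicates 1 or 6, and Glul without fructose replicate 5. The count of members that rose was 0 without chow replicates 2 or 4 or fructose replicates 4 or 6, 1 at a time, and 1 without chow replicate 5. In whole tissue, more astrocytes, more RNA per astrocyte and a different share of other cells or regions in the samples cannot be told apart.

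**Figure D1:**
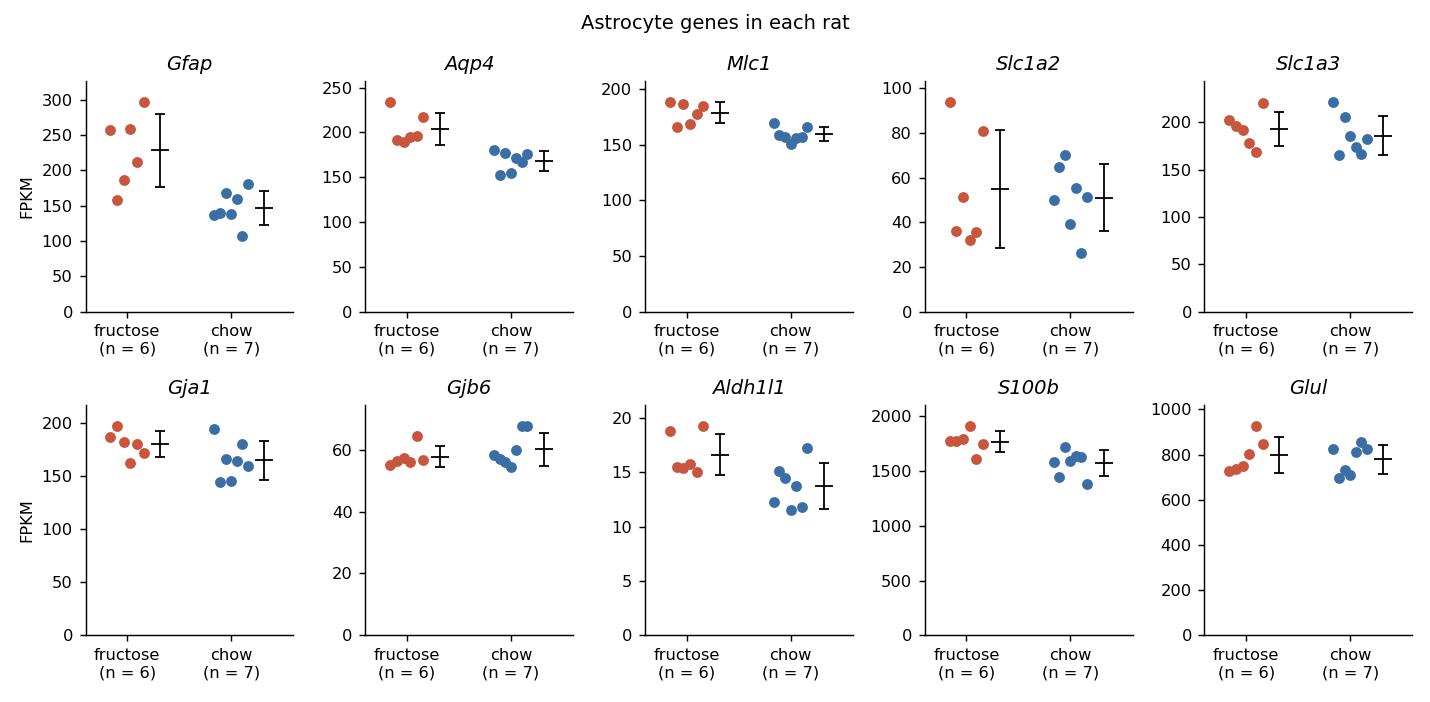
FPKM of the 10 astrocyte genes in each rat, fructose (n = 6) left of chow (n = 7), 1 point per rat, with the mean and SD beside the points and each axis starting at 0. For Aqp4 the 6 fructose rats lie above the 7 chow rats, and for Gfap 5 of the 6 do.

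Gfap ranged from 158 FPKM through a median of 235 to 297 FPKM in fructose rats, against 108 through a median of 140 to 181 FPKM in chow rats. All fructose rats but replicate 2, the lowest at 158 FPKM, lay above every chow rat. The means were 228 ± 51.6 FPKM (SD, n = 6) on fructose and 147 ± 24.1 FPKM (SD, n = 7) on chow, and the log2 fold change was 0.62 ± 0.14 (SE, limma adjusted p = 0.0323). An exact two-sided permutation test of Gfap alone gave p = 0.00466, unadjusted, and 18.8% of all genes tested had such a p under 0.05. Adjusted over all genes, the exact permutation p of Gfap was 0.112, and the smallest of any gene was 0.0663. The call depended on single rats. Leaving out a chow rat ended it for replicate 2 (limma adjusted p = 0.0693), replicate 4 (0.0691) and replicate 5 (0.0501), and leaving out a fructose rat ended it for replicate 4 (0.0795) and replicate 6 (0.0775), while the log2 fold change stayed between 0.53 and 0.72 in the 13 fits with 1 rat left out.

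Aqp4, the water channel of the endfeet, ranged from 189 through a median of 196 to 234 FPKM in fructose rats, against 153 through a median of 171 to 180 FPKM in chow rats. The diets did not overlap, which held for 1.61% of all genes tested and, among the 10 members, for Aqp4 alone. Its log2 fold change was 0.27 ± 0.06 (SE, limma adjusted p = 0.0276), and the exact permutation p was 0.000583, the smallest that the 1716 splits of the rats allow. Adjusted over all genes, the exact permutation p of Aqp4 was 0.0663, the smallest of any gene tested. The call ended when chow replicate 2 (limma adjusted p = 0.0616) or 4 (0.0601) was left out, and likewise for fructose replicate 4 (0.0588) or 6 (0.0696). Mlc1, a membrane protein of astrocyte contacts, ranged from 166 through 181 to 188 FPKM in fructose rats, against 151 through 157 to 169 FPKM in chow rats. Of the fructose rats, 4 lay above every chow rat. Its log2 fold change was 0.16 ± 0.04 (limma adjusted p = 0.0478), and of the 13 fits with 1 rat left out it was called only in the fit without chow replicate 1 (adjusted p = 0.0237). In the other 12, each without 1 of the other chow rats or 1 of the fructose rats, the adjusted p lay between 0.0516 and 0.107.

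The sequences upstream of the start sites of the 3 genes that rose are shown with that of Gjb6, the gap junction gene whose log2 fold change was below 0, which was picked after its value was seen. They are the 250 bases before the start, 5′ to 3′, from RefSeq on build GRCr8, whereas the submitters' processing notes name rn5 for the expression values. For Aqp4 and Gjb6, which have 2 annotated starts each, the start listed first is shown. Capitals mark matches on either strand. The pattern of STAT factors was TTC followed by GAA after 3 or 4 bases. For NFI factors it was TGGC followed, after a gap of 5 bases, by its reverse complement. Sites of AP-1 were searched as TGANTCA. GC boxes were searched as GGGCGG. The letters TATAAA stood for TATA boxes. The last pattern searched was the CCAAT box.
Gfap (chr10:88361662-88361911, strand -): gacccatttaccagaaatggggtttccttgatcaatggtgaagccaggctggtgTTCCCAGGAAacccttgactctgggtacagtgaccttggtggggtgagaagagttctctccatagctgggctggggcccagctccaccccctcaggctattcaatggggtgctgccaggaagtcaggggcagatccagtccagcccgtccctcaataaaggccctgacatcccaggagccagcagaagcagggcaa
Aqp4 (chr18:6798843-6799092, strand -): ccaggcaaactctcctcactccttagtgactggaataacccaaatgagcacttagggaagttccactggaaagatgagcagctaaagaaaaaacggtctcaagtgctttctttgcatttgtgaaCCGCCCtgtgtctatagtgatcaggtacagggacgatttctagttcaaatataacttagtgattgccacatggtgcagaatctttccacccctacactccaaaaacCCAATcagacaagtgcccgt
Mlc1 (chr7:121946699-121946948, strand -): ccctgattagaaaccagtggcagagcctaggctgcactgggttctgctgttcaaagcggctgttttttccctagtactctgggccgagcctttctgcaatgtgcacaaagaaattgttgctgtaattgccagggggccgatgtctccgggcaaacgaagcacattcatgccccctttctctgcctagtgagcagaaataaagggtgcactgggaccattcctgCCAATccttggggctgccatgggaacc
Gjb6 (chr15:35410139-35410388, strand -): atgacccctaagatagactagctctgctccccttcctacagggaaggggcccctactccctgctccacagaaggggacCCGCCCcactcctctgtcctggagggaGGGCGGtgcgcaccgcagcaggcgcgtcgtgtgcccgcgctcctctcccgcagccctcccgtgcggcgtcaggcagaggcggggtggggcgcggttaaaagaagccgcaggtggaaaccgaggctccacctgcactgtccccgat
The Gfap window held 1 match to the STAT pattern with 4 bases between its arms, starting 196 bases before the start. All 10 astrocyte genes were found in the promoter table, with 16 windows. Those of Slc1a3 overlap in most of their bases and held no match, so the 16 are not separate sequences. The 4-base STAT pattern was present in 3 of the 16, 1 each of Gfap, Gjb6 and Slc1a2, and in 6.25% of all 33469 windows. The 3-base pattern, found in 7.67% of all windows, and the NFI pattern, found in 0.732%, were in 0 of the 16. CCAAT stood in 6 of the 16 windows, 1 of Aqp4 and that of Mlc1 among them, and in 34% of all windows. A GC box stood in 6 of the 16 and in 30.5% of all windows, so both were near their share over all windows. An AP-1 match was found in 1 of the 16, upstream of Gja1, and in 6.34% of all windows, and a TATA box in 0 of the 16 and in 12.9% of all. No 2 matches in the 16 windows shared a base. Aqp4 and Mlc1 shared the CCAAT box, which was also found for Aldh1l1, S100b and Glul, members that did not pass. None of the patterns searched stood in windows of all 3 genes that rose.

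**Figure D2:**
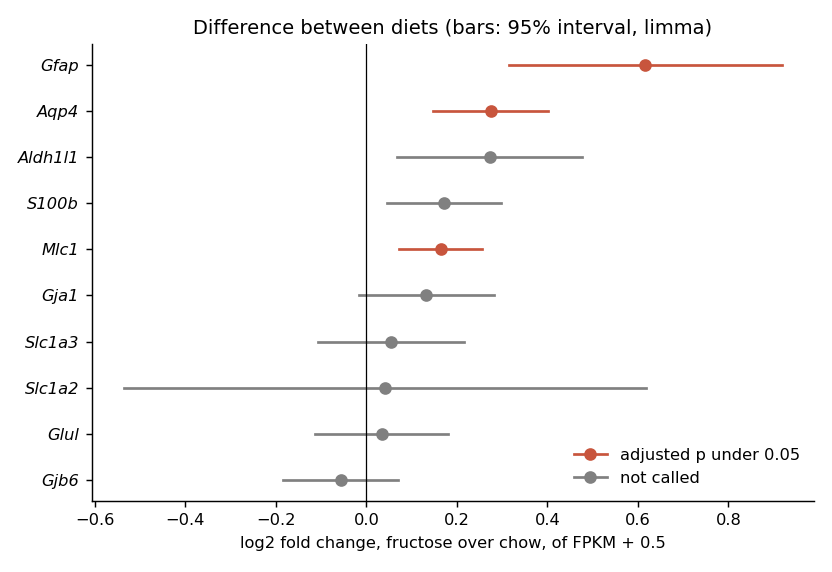
Log2 fold changes, fructose over chow, of FPKM + 0.5 for the 10 astrocyte genes, with 95% intervals from limma, filled in red where the adjusted p was under 0.05. Gfap stands at 0.62, Aqp4 at 0.27 and Mlc1 at 0.16, and Slc1a2 has the widest interval, from -0.53 to 0.62.

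Among the 7 astrocyte genes that did not pass, S100b and Aldh1l1 came closest. S100b, the most abundant member, ranged from 1613 through a median of 1770 to 1912 FPKM in fructose rats, against 1385 through a median of 1593 to 1721 FPKM in chow rats. Of the fructose rats 5 lay above every chow rat, and the log2 fold change was 0.17 ± 0.06 (SE, limma adjusted p = 0.121, exact permutation p = 0.00641 unadjusted). Aldh1l1, the least abundant, ranged from 15.0 through 15.6 to 19.3 FPKM in fructose rats, against 11.6 through 13.8 to 17.3 FPKM in chow rats, so the diets overlapped. Its log2 fold change of 0.27 ± 0.10 was as large as that of Aqp4, with an adjusted p of 0.130 by limma. At an unadjusted p under 0.05, 5 of the 10 members were higher and 0 lower, against 8.59% higher and 10.6% lower over all genes.

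The glutamate uptake genes overlapped between diets. Slc1a3, the transporter GLAST, ranged from 169 to 220 FPKM in fructose rats, against 166 to 222 FPKM in chow rats, and its log2 fold change was 0.05 with a 95% interval of -0.11 to 0.22 (limma adjusted p = 0.764). Slc1a2, the transporter GLT-1, ranged from 31.99 through a median of 43.8 to 93.8 FPKM in fructose rats, against 26.1 through a median of 51.3 to 70.1 FPKM in chow rats. It was highest in fructose replicates 1 and 6, at 93.8 and 80.7 FPKM, and lowest in chow replicate 6. Its log2 fold change was 0.04 with an interval of -0.53 to 0.62 (limma adjusted p = 0.957). Its within-diet SD of 0.56 on the log2 scale was above that of 99.2% of the 500 genes nearest to it in mean level, whose median was 0.12. Gfap stood at an SD of 0.29, above 96.6% of its own 500 nearest genes, and Mlc1 at 0.07, above 9.6%.

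Glul, glutamine synthetase, ranged from 728 to 928 FPKM in fructose rats, against 698 to 854 FPKM in chow rats (log2 fold change 0.03, interval -0.11 to 0.18, limma adjusted p = 0.846). The gap junction genes lay on either side of 0. Gja1, connexin 43, ranged from 163 to 198 FPKM in fructose rats, against 144 to 195 FPKM in chow rats, with a log2 fold change of 0.13 and an interval of -0.02 to 0.28 (limma adjusted p = 0.322). Gjb6, connexin 30, ranged from 55.0 to 64.4 FPKM in fructose rats, against 54.5 to 67.7 FPKM in chow rats, at -0.06 with an interval of -0.18 to 0.07 (limma adjusted p = 0.672). These intervals hold changes in both directions for Slc1a2, Slc1a3, Glul, Gja1 and Gjb6.

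The order of levels, which FPKM puts on a scale per transcript length, was the same in both diets at its ends. S100b came first and Glul second in all rats. Aldh1l1 came last by mean, below Slc1a2 in 6 of 6 fructose rats and in 7 of 7 chow rats. Gfap took a different place by diet, rank 3 by mean on fructose and rank 7 on chow. In single rats it ranked 3 in fructose replicates 1, 4, 5 and 6, 5 in replicate 3 and 7 in replicate 2, against 7 in chow replicates 1, 2, 4 and 6, 6 in replicate 5, 5 in replicate 3 and 4 in replicate 7. Most neighbours in between were not apart beyond their spread. On fructose Gfap exceeded Aqp4 in 4 of 6 rats, Aqp4 exceeded Slc1a3 in 3 of 6, Slc1a3 exceeded Gja1 in 4 of 6 and Gja1 exceeded Mlc1 in 2 of 6. On chow Aqp4 exceeded Gja1 in 5 of 7 rats, Gja1 exceeded Mlc1 in 4 of 7 and Mlc1 exceeded Gfap in 4 of 7, but Slc1a3 exceeded Aqp4 in 7 of 7. Gjb6 lay below the 7 genes ranked above it in all rats, and exceeded Slc1a2 in 4 of 6 fructose rats and 5 of 7 chow rats.

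Gfap was next set against the homeostatic genes within each rat, as log2 Gfap minus the mean log2 of the other 9 members. This difference was 0.44 ± 0.29 (SD, n = 6) in fructose rats and -0.05 ± 0.20 (SD, n = 7) in chow rats. It ranged from 0.03 through a median of 0.47 to 0.77 in fructose rats, against -0.40 through a median of -0.00085 to 0.20 in chow rats. Fructose replicates 1, 3, 4, 5 and 6 lay above every chow rat and fructose replicate 2 among them, with the gap between replicate 3, at 0.205, and the highest chow rat, at 0.199, being small. The difference between diets was 0.50, as the 9 homeostatic genes together stood at 7.36 ± 0.11 in fructose rats and 7.24 ± 0.08 in chow rats, 0.12 apart, and Gfap 0.62 apart. As a measure over the members it was given no test.

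Against single members, the log2 difference between Gfap and its partner was higher on fructose by 0.34 for Aqp4 and for Aldh1l1, by 0.44 for S100b, by 0.45 for Mlc1 and by 0.48 for Gja1. It was higher by 0.56 for Slc1a3, by 0.57 for Slc1a2, by 0.58 for Glul and by 0.67 for Gjb6. Fructose rats above every chow rat numbered 5 of 6 for Gjb6, Glul and Aldh1l1, 3 of 6 for Slc1a2 and 4 of 6 for the other 5 partners. Each of these values is by arithmetic the log2 fold change of Gfap less that of the partner. They were therefore smallest for Aqp4 and Aldh1l1, the partners with the largest fold changes.

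**Figure D3:**
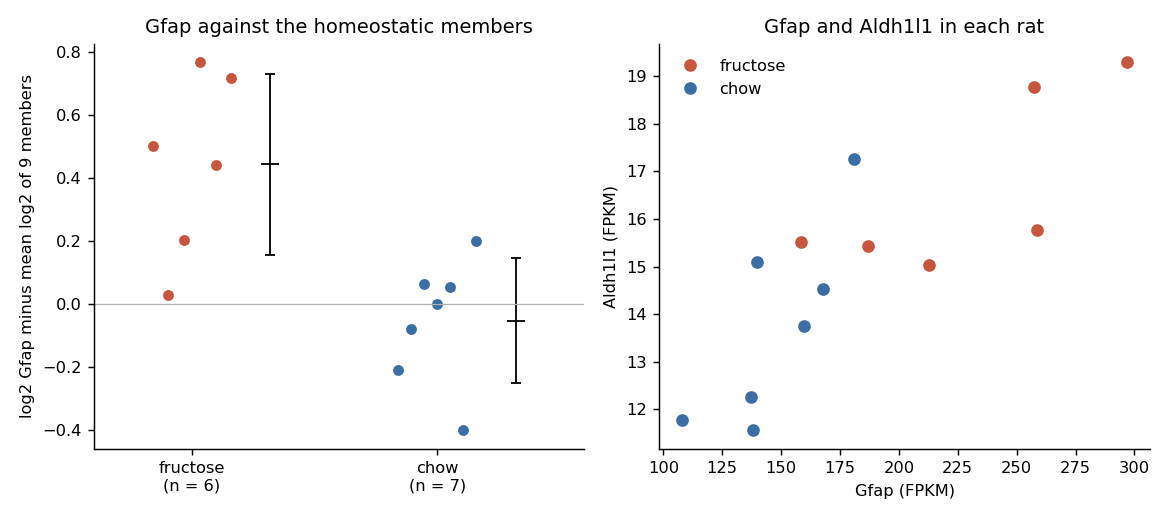
Left, log2 FPKM + 0.5 of Gfap minus the mean of the 9 homeostatic genes in each rat, fructose (n = 6) left of chow (n = 7), with the mean and SD. Right, Aldh1l1 against Gfap in FPKM, 1 point per rat. On the left 5 of 6 fructose rats lie above every chow rat. On the right r is 0.84 on the log2 scale with both diets pooled, so a diet difference in both genes adds to it. Within diets r is 0.73 on fructose and 0.77 on chow (exact permutation p adjusted over 18 relations = 0.5 and 0.445).

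Whether rats with more Gfap also had more of another member was examined for 9 relations, with permutation p-values adjusted over the 9. The pooled p-values come from shuffling rats without regard to diet, so a diet difference in both genes can lower them. Aldh1l1 followed Gfap over the 13 rats (Pearson r = 0.84, permutation p = 0.00037, adjusted p = 0.00216; Spearman rho = 0.81, permutation p = 0.00147, adjusted p = 0.0108). Without fructose replicate 6 and chow replicate 6, the 2 rats farthest from the Gfap median, r was 0.72. Within diets r was 0.73 in fructose rats (n = 6, exact permutation p = 0.118) and 0.77 in chow rats (n = 7, exact permutation p = 0.0369). Adjusted over 18 within-diet relations, these p-values were 0.5 and 0.445.

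Mlc1 had a pooled r of 0.74 (permutation p = 0.00407, adjusted p = 0.0122; Spearman rho = 0.66, permutation p = 0.0167, adjusted p = 0.05) and an r of 0.67 without the same 2 rats. Within diets r was lower, at 0.44 in fructose rats and 0.22 in chow rats (exact permutation p = 0.369 and 0.617). With 6 and 7 rats these values cannot show whether a relation within diets is absent. For Aqp4, whose diets do not overlap, only within-diet values are given, 0.69 in fructose rats and 0.38 in chow rats (exact permutation p = 0.139 and 0.400). The pooled r of the other 6 lay between -0.29 for Gjb6 and 0.49 for S100b, and their rho between -0.24 and 0.53, with permutation p-values of 0.0646 to 0.964 and adjusted p-values of 0.145 to 0.964. Without the 2 farthest rats r lay between -0.11 and 0.54 for these 6. Slc1a2 was correlated with Gfap at 0.53 within fructose rats and 0.76 within chow rats (exact permutation p = 0.274 and 0.0494, adjusted p = 0.793 and 0.445 over the 18). The correlation of Gfap with Gja1 was negative within both diets, at -0.73 in fructose rats and -0.29 in chow rats (exact permutation p = 0.0986 and 0.545).

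Of 28 tested genes on a list of other astrocyte markers, 1 rose, 0 fell and 27 did not pass, with a median log2 fold change of 0.11 and 23 of 28 above 0. The gene that rose was Slc25a18, a mitochondrial glutamate carrier, at 64.6 to 76.0 FPKM in fructose rats, against 58.0 to 66.3 FPKM in chow rats (0.24 ± 0.05, limma adjusted p = 0.0214). Its call ended when chow replicate 2 or fructose replicate 4 or 6 was left out (adjusted p between 0.0503 and 0.0589). Sparcl1, a secreted protein that promotes synapse formation, stood at 1484 to 1654 FPKM in fructose rats, against 1187 to 1462 FPKM in chow rats, without overlap, but did not pass (0.19 ± 0.05, limma adjusted p = 0.0646). Lcat, an enzyme that esterifies cholesterol on lipoproteins, had a log2 fold change of 0.61 ± 0.18, as large as that of Gfap, and did not pass (limma adjusted p = 0.0698).

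Of 28 tested genes on a list of reactive astrocyte genes apart from Gfap, 2 rose, 0 fell and 26 did not pass, with a median of 0.15 and 22 of 28 above 0. At an unadjusted p under 0.05, 6 were higher and 0 lower. Timp1, an inhibitor of matrix metalloproteinases, stood at 3.04 to 6.42 FPKM in fructose rats, against 2.09 to 3.89 FPKM in chow rats (0.71 ± 0.16, limma adjusted p = 0.0314). Cp, the copper-binding ferroxidase ceruloplasmin, stood at 2.77 to 4.92 FPKM in fructose rats, against 1.80 to 2.77 FPKM in chow rats (0.58 ± 0.13, limma adjusted p = 0.0341). The diets did not overlap for Cp, by a narrow margin. Timp1 lost its call without chow replicates 2, 3, 4 or 7 or fructose replicates 3, 4 or 6, and Cp without chow replicates 2, 4, 5 or 7 or fructose replicates 1, 3, 4 or 6 (adjusted p between 0.0509 and 0.0841, 1 rat left out at a time). Vim, the filament partner of Gfap, stood at 54.2 to 96.4 FPKM in fructose rats, against 44.2 to 68.1 FPKM in chow rats (0.45 ± 0.13, limma adjusted p = 0.0733). Among fructose rats, Timp1, Cp and Vim were lowest in replicates 2 and 5. A list of meninges and fibroblast genes, given below, was also lowest in these replicates, at mean log2 levels of 2.40 and 2.47. A link was not tested.

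Of the other genes on the list, the hyaluronan receptor Cd44, the complement inhibitor Serping1 and the cholesterol hydroxylase Ch25h had log2 fold changes of 0.51, 0.50 and 0.34, with 4 of 6 fructose rats above every chow rat for each, and did not pass (limma adjusted p = 0.135, 0.116 and 0.0944). Smaller values stood at other markers of reactivity. C3, a complement component, had a log2 fold change of 0.19 (limma adjusted p = 0.672), the lipocalin Lcn2 of 0.11 (0.748), the galectin Lgals3 of -0.04 (0.937) and Stat3, the transcription factor of the cytokine response, of 0.11 (0.498). These 7 genes were picked after their values were seen. Serpina3n was listed at 0 in all rats, and such a 0 may stem from an estimate that failed, and 8 of the 36 genes on the list were too low to be tested, Serpina3n among them. Of the 10 genes of the intermediate filament family, Gfap rose and 9 did not pass, with a median of 0.03. Vim came next and then Ina, a neuronal filament gene, at -0.23 ± 0.08 (limma adjusted p = 0.118).

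**Figure D4:**
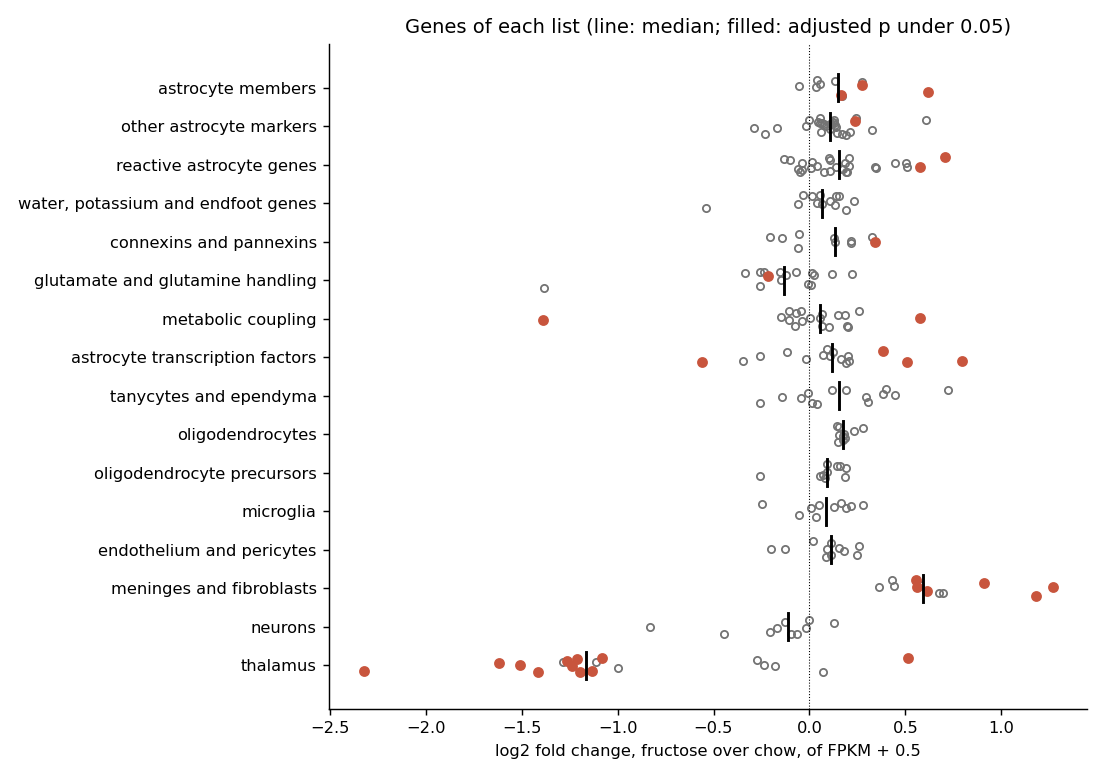
Log2 fold changes, fructose over chow, of FPKM + 0.5 for the tested genes of 16 lists, 1 point per gene, filled where the adjusted p was under 0.05, with a line at the median of each list. The first 3 lists, all of astrocyte genes, have medians of 0.15, 0.11 and 0.15 from the top, the meninges list one of 0.59 and the thalamus list one of -1.16.

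Genes that share a pathway with the members gave few calls. Of 13 tested genes of water and potassium transport and the endfoot scaffold, limma called 0, with 1 higher and 1 lower at an unadjusted p under 0.05 (median 0.07). The potassium channels Kcnj10 and Kcnj16 stood at 0.23 and 0.13 on the log2 fold change scale (limma adjusted p = 0.475 and 0.277). Sntb1, a scaffold gene of the membrane skeleton, had the smallest p of the list, at -0.54 ± 0.15 (0.0651). The 10 tested connexins and pannexins, Gja1 and Gjb6 among them, had a median of 0.13, with 6 above 0. Gjb2, the connexin 26 found in astrocytes and meninges, had 0.33 ± 0.14 and did not pass (limma adjusted p = 0.230).

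The 16 further genes of glutamate and glutamine handling had a median of -0.14, with 5 of 16 above 0. The neuronal transporter Slc1a1 stood at -0.34 ± 0.10 and the aminotransferase Got1 at -0.15 ± 0.05, and neither passed (limma adjusted p = 0.0620 and 0.0750).

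Of 16 tested transcription factors of astrocytes and their precursors, 3 rose, 1 fell and 12 did not pass (median 0.12). Id3 and Id2, inhibitors of basic helix-loop-helix factors, rose by 0.51 ± 0.09 and 0.38 ± 0.08 on the log2 scale (limma adjusted p = 0.0153 and 0.0263). Id3 stood at 36.6 to 46.4 FPKM in fructose rats, against 23.3 to 34.1 FPKM in chow rats, without overlap. Emx2, a forebrain homeobox gene, was higher at a low level, at 1.03 to 1.52 FPKM in fructose rats, against 0.260 to 0.783 FPKM in chow rats (0.80 ± 0.13, limma adjusted p = 0.00874). Pax6, a homeobox gene of progenitors and some neurons, fell to 4.46 to 6.39 FPKM in fructose rats, against 6.62 to 10.9 FPKM in chow rats (-0.56 ± 0.12, limma adjusted p = 0.0276). Id3 and Emx2 kept their calls in all 13 fits with 1 rat left out. Id2 lost its call without chow replicates 2 or 4 or fructose replicates 2, 4 or 6 (adjusted p between 0.0515 and 0.0636), and Pax6 without chow replicate 4 or fructose replicate 4 (0.0532 to 0.0590).

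Of 19 tested genes of metabolic coupling between astrocytes and neurons, 1 rose, 1 fell and 17 did not pass (median 0.06). Slc16a3, the lactate exporter MCT4, stood at 1.40 to 1.92 FPKM in fructose rats, against 0.566 to 1.27 FPKM in chow rats (0.58 ± 0.13, limma adjusted p = 0.0324). Pygl, a glycogen phosphorylase, fell to 2.18 to 11.1 FPKM in fructose rats, against 5.66 to 24.1 FPKM in chow rats (-1.39 ± 0.35, limma adjusted p = 0.0394). With quantile normalization Slc16a3 stood at an adjusted p of 0.0643. It lost its call without chow replicates 2, 3 or 5 or fructose replicates 2, 4 or 6, and Pygl without any chow replicate but the first or without fructose replicates 2, 4 or 6 (adjusted p between 0.0507 and 0.0962). Gyg1, which primes glycogen, had 0.26 ± 0.08 and did not pass (0.0716). The fructose transporter Slc2a5 and ketohexokinase, Khk, which starts fructose breakdown, stood at -0.05 and 0.15 (limma adjusted p = 0.909 and 0.455).

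Marker genes of other cells were set beside the members. All 10 oligodendrocyte markers had a log2 fold change above 0 (median 0.17), with 0 called by limma, and their summed level was 12869 to 19353 FPKM in fructose rats, against 11481 to 16341 FPKM in chow rats. Of 14 tested genes of tanycytes and ependyma, which share Gfap and Vim with astrocytes, 0 were called (median 0.15), and the sum was 140 to 208 FPKM in fructose rats, against 119 to 155 FPKM in chow rats. Of 10 neuronal markers 0 were called (median -0.11), and the sum was 2657 to 3142 FPKM in fructose rats, against 2659 to 3469 FPKM in chow rats. At an unadjusted p under 0.05 the oligodendrocyte, tanycyte and neuronal lists held 1, 4 and 2 genes. The myelin genes Cnp, Mbp and Mag stood at log2 fold changes of 0.18, 0.23 and 0.16, the ciliary factor Foxj1 and the tanycyte gene Crym at 0.38 and 0.72, and the neuronal genes Syt1, Eno2 and Tubb3 at -0.44, -0.83 and -0.13, with limma adjusted p-values of 0.0721 to 0.311.

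Microglia (0 of 10 called, median 0.09), oligodendrocyte precursors (0 of 10, median 0.09) and endothelium and pericytes (0 of 11, median 0.11) had medians close to those of the astrocyte lists, with 3, 5 and 3 genes at an unadjusted p under 0.05. Their genes of smallest p were Aif1, C1qa and C1qc of microglia (0.28, 0.22 and 0.19), Bcan, Cspg5 and Olig1 of precursors (0.19, -0.26 and 0.19) and Vtn, Pecam1 and Esam of vessels (0.26, 0.25 and 0.18), with limma adjusted p-values of 0.0630 to 0.232. Larger differences stood elsewhere. Of 12 tested genes of meninges and fibroblasts 6 rose (Igf2, Fmod, Col1a1, Dcn, Ptgds and Lum, by 0.55 to 1.27 on the log2 scale), with a sum of 631 to 991 FPKM in fructose rats, against 392 to 747 FPKM in chow rats. Their defining genes Col1a2 and Ogn were listed at 0 in all rats. Of 8 tested blood cell genes 5 rose (Hba1, Hba2, Hbb and Hbb-b1, close copies that can share reads, and Alas2, by 1.57 to 2.00), with a sum of 538 to 2342 FPKM in fructose rats, against 266 to 671 FPKM in chow rats. Of 18 thalamus genes 10 fell, Prkcd most at -2.32, and 1 rose, Calb2, with a sum of 1533 to 3837 FPKM in fructose rats, against 1814 to 6778 FPKM in chow rats. All 15 tested midbrain dopamine neuron genes rose, Slc6a3 most at 5.39, with a sum of 268 to 711 FPKM in fructose rats, against 114 to 154 FPKM in chow rats. With 1 rat left out, the genes called numbered 0 to 7 for meninges, fewest without fructose replicate 4, and 1 to 14 for thalamus, fewest without chow replicates 2 or 4 or fructose replicates 4 or 6. They numbered 4 to 6 for blood and 13 to 15 for dopamine neurons. Of 24 hypothalamic neuron genes 1 rose, Sox14 (0.73, limma adjusted p = 0.0394), with 0 to 2 called when 1 rat was left out. Sox14 itself was then called only in the fits without chow replicate 1 or fructose replicates 1 or 5, and its adjusted p in the other 10 lay between 0.0508 and 0.0930. Of 3 tested choroid plexus genes 0 passed and 1 had an unadjusted p under 0.05, Ttr standing at -1.30 (0.237). The part of these cells and regions in the differences of Gfap, Aqp4 and Mlc1, and of the genes on the other astrocyte lists, was not tested.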

How the data were processed

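Whole hypothalamus RNA of 13 rats was sequenced, and the authors deposited 1 table of FPKM with a column for each rat. The submitters' processing notes name STAR 2.3.0e, Cufflinks 2.1.1, Cuffdiff and build rn5. The sources used here give neither settings nor how libraries were scaled to each other. Titles matched the columns to rats, and the diet label gave the group. Replicates were numbered in accession order, so a number pairs nothing.

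No counts are used here and the absolute depth is unknown. From the spacing of low values, the worth of 1 read, set against the first chow rat, lay between 0.874 and 1.23. Total FPKM lay between 556902 and 608058. Whether rats sharing a cage were independent is not known.

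Rows were matched by symbol, with the highest mean where a symbol had several. Values were analysed as log2(FPKM + 0.5), which understates changes of low genes. Genes whose mean reached 0.5 FPKM were fitted with limma 3.58.1 in R 4.3.3 (intensity trend, two-sided), with Benjamini-Hochberg adjustment over 11837 genes. Single genes were also compared by exact permutation over 1716 splits. Members, lists and motifs were chosen with earlier results of these data known. Lists were described by counts and medians, with no set test. The rule for named genes took the members, every called gene of each list, genes of smallest p where fewer than 3 of a list were called, and the 5 genes most like Gfap or the homeostatic mean. Of the thalamus, midbrain dopamine, choroid plexus and hypothalamic lists only leading genes are named. Some genes that the rule takes are not reported here. Kcnj10, Slc2a5 and Khk were picked after their values were seen. Tried instead were pseudocounts of 0.1 and 1, a filter at 2 FPKM or none, quantile and median-ratio scaling, array weights, robust moderation, the exact test per gene, an adjusted p under 0.1, 2 other summaries of the homeostatic genes, and leaving out each rat.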

Additional observations from a re-analysis of the deposited data

Results flagged for a closer look

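Gjb6, the connexin 30 gene, stood at 64.4 FPKM in fructose replicate 5, and the nearest of the other fructose rats was at 57.2 FPKM. The gap was 0.768 of the range of the 6 fructose rats, above Dixon's limit of 0.625. It was the only one found among 22 groups of values examined (each member and the Gfap difference in each diet), and chance alone gives about 1 in 20.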

How the results depend on the processing

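The log2 fold changes of Gfap, Aqp4 and Mlc1 were above 0 in every fit run. Gfap, Aqp4 and Mlc1 were called with both pseudocounts, the 2 FPKM filter, quantile normalization, median-ratio scaling and array weights. Mlc1 was not called with no filter (0.16, adjusted p = 0.0542) or robust moderation (0.16, adjusted p = 0.0533). By the exact permutation test per gene, Gfap (0.62), Aqp4 (0.27) and Mlc1 (0.16) had adjusted p-values of 0.112, 0.0663 and 0.104. That test called 0 of the 10 members and 0 of all genes, against 466 genes called by limma. It had 2223 genes at an unadjusted p under 0.05. The smallest p that the 1716 splits allow, 0.000583, stood at 0.0663 after adjustment over all genes. A gene at that limit could therefore not pass, however large its difference. All genes called numbered 308 with no filter, 1019 with array weights and 915 at an adjusted p under 0.1. With 1 rat left out they numbered 83 to 859, and the members called 0 to 3. The members called were 0 without chow replicates 2 or 4 or fructose replicates 4 or 6, and 1 without chow replicate 5. The log2 fold change was then 0.53 to 0.72 for Gfap, 0.23 to 0.30 for Aqp4 and 0.15 to 0.18 for Mlc1. The other 7 members were called in no fit with 1 rat left out. The excess of Gfap over the homeostatic genes was 0.46 with their median, 0.49 without Slc1a2, and 0.43 to 0.58 with 1 rat left out. The correlation of Gfap with S100b passed with quantile normalization (adjusted p = 0.0489) and that with Slc1a2 without fructose replicate 4 (0.0467). The causes were not tested. No paired analysis was possible because the labels give no replicate numbers that link rats across diets. No read counts are used here, so counting error could not be separated from the spread between rats.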

Other observations

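The genes whose level followed Gfap most closely over the 13 rats, after the diet means were taken off, were searched among 8670 genes whose mean reached 5 FPKM. They were Lcat (r = 0.88), Aebp1 (0.86), Smad4 (0.86), Zfp710 (0.82) and Zfp36l1 (0.82). Lcat and Aebp1 had log2 fold changes of 0.61 and 0.67 and did not pass (limma adjusted p = 0.0698 and 0.116), while Smad4, Zfp710 and Zfp36l1 stood between -0.14 and 0.11. Smad4 mediates signals of the TGF-beta family, and Zfp36l1 binds AU-rich stretches of messenger RNA. The genes closest to the mean of the 9 homeostatic members were Prkca (0.95), Rnf144a (0.92), Il6st (0.91), Crkl (0.89) and Slmo1 (0.89), with log2 fold changes of -0.11 to 0.27 and limma adjusted p-values of 0.291 to 0.932. These r values are the highest out of all genes searched and are given as a description with no test. Slc1a2, the member of widest spread, had an r of 0.87 with the mean of the 9 of which it is part.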
